A study of Mus musculus with 6 samples.

Results

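The histone genes, replication-dependent and variant, were followed in RNA-Seq data of mouse sciatic nerve. Members were chosen by gene symbol alone, taking the Hist1h to Hist4h genes, the H2af genes, the H3f3 genes, H1f0 and H1fx, which gave 81 of the 24015 genes in the count tables. Of these, 67 carry Hist symbols and were treated as replication-dependent, and the other 14 as variant genes. By family, 18 were H2B genes and 63 belonged to H1, H2A, H3 or H4.

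Control mice carried Rnf40 fl/fl without Cre, and Rnf40ΔSC mice carried Dhh::Cre in addition to Rnf40 fl/fl, both taken at postnatal day 14. Dhh::Cre drives deletion in the Schwann cell lineage, while the libraries were made from whole nerve, which also holds fibroblasts and perineurial, endothelial and immune cells. There were 3 libraries per genotype, and each library came from a pool of 3 nerves, so that no value belongs to a single nerve. The labels give a mixed 129SvJ/C57Bl/6J background for all libraries, whereas the methods name C3H in place of 129SvJ. The comparison asks how histone transcripts differ in a nerve whose Schwann cells lack Rnf40, a partner of Rnf20 in the ubiquitin ligase that attaches ubiquitin to histone H2B.

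Replication-dependent histone genes lie in clusters and are transcribed mainly in S phase, and their mRNAs end in a conserved stem-loop, bound by Slbp, in place of a poly(A) tail. Variant histone genes are spread over the genome, carry introns in many cases, give polyadenylated mRNAs and are used outside S phase as well, so that they supply most new histones in cells that have stopped dividing. In the nerve at this age most Schwann cells have left the cell cycle and are forming myelin.

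The 3′ stem-loop, searched by its consensus on the gene's own strand in the 100 bases after the stop codon, was found in 60 of 66 replication-dependent genes with a coding end in the GENCODE vM1 annotation and in 1 of 10 variant genes, H2afx. Of all 21930 protein-coding genes 0.283% (62 genes) held it. Those of the H2B, H1 and H4 genes with the most reads among replication-dependent genes and that of the 1 variant gene are shown 5′ to 3′, since the results turn on these genes, with the arms of the stem in capitals and the loop and flanks in lower case. They are at chr13:23776516-23776531 (Hist1h2bc), chr13:23831381-23831396 (Hist1h1c), chr13:23623327-23623342 (Hist1h4h) and chr9:44143323-44143338 (H2afx) of mm9, all on the plus strand, with 5 flanking bases on either side in addition.
Hist1h2bc: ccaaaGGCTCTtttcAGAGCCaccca
Hist1h1c: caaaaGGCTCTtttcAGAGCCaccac
Hist1h4h: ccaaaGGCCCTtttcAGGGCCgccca
H2afx: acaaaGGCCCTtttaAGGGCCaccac

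Counts on genes amounted to 1317167, 1992622 and 2468765 in control libraries 1, 2 and 3 and to 2184268, 1459387 and 2186710 in the Rnf40ΔSC libraries. Scaling factors (TMM, which corrects for differences in composition) were 0.928, 0.893 and 0.913 in control and 1.07, 1.11 and 1.11 in Rnf40ΔSC libraries, and normalized counts below are scaled by them to the mean library. The Schwann cell markers Sox10, S100b, Egr2 and Prx were present in every library, as the tissue label requires. Sox10, a transcription factor of the Schwann cell lineage, gave 957, 1055 and 1084 normalized counts in control and 629, 574 and 592 in Rnf40ΔSC libraries, all of the latter lower. S100b, a calcium-binding protein of Schwann cells, gave 791, 912 and 863 against 498, 491 and 401 normalized counts, again all lower. In such bulk samples fewer cells of a type and less RNA per cell cannot be told apart.

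Rnf40 gave 82, 116 and 165 reads in control and 109, 75 and 118 reads in Rnf40ΔSC libraries, or 133 ± 8.15 and 91.6 ± 2.22 normalized counts (SD, n = 3). All 3 Rnf40ΔSC libraries lay below all 3 control libraries. The counts cover the whole gene, and reads from the deleted exons were not analysed here. The log2 fold change was -0.54 ± 0.14 (SE; edgeR quasi-likelihood test, Benjamini-Hochberg adjusted p = 0.00242), and with total-count scaling it was -0.27 with an edgeR adjusted p of 0.120, against a range of 0.00235 to 0.120 over all alternatives.

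Library Rnf40ΔSC 3 stood apart within its genotype. The 6 skeletal muscle markers (Myh4 the most abundant) summed to 3434, 2522 and 1872 CPM (each gene's part of the TMM-scaled total of its library) in control libraries and to 71.7, 174 and 2386 CPM in Rnf40ΔSC libraries 1, 2 and 3, and pairs of libraries that included Rnf40ΔSC 3 differed most within a genotype (chi-square per degree of freedom 5.21 and 3.18, against 1.78 to 2.78 in the other pairs). None of the 6 muscle genes passed the test in edgeR, where the count at an unadjusted p under 0.05 was 0, or in DESeq2. Values without Rnf40ΔSC 3 are therefore given for each histone gene tested and for the sums of replication-dependent, variant, H1, H2A and H2B genes, and the part of the muscle markers in them was not tested. Without Rnf40ΔSC 3 all control libraries are high and both Rnf40ΔSC libraries low in muscle markers, so that in those values muscle content and genotype cannot be told apart.

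Reads fell on few of the histone genes. In all 6 libraries together 46 of the 81 genes had no read, 44 of them among the 67 replication-dependent and 2 (H2afb2 and H2afb3) among the 14 variant genes. At 3 counts over all libraries this allows up to 0.259 CPM per gene, except for 6 genes with no unique sequence window, for which 0 reads set no limit. H2afb2 and H2afb3 were not found in the annotation, so their unique sequence was not measured and no limit is given for them. Where few windows are unique, the limit covers those windows only. It also covers only RNA that entered the libraries, and the sources used here do not say whether poly(A) RNA was selected. Reads on exon bases shared with another gene may have gone uncounted. A further 17 genes had fewer than 10 reads in total. Only 12 genes, 4 replication-dependent and 8 variant, had enough reads to be tested (edgeR's filterByExpr), so the test speaks for 12 of 81 genes.

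Histone reads numbered 1023, 1473 and 1964 in control and 2635, 1870 and 2366 in Rnf40ΔSC libraries, or 0.0777%, 0.0739% and 0.0796% of all counts against 0.121%, 0.128% and 0.108%. The Rnf40ΔSC libraries thus lay above the control libraries without overlap. After TMM scaling the sum was 850 ± 23.3 CPM in control and 1093 ± 100.5 CPM in Rnf40ΔSC libraries (SD, n = 3), a log2 ratio of 0.36.

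Among the 12 genes tested, 5 were higher and 1 was lower in Rnf40ΔSC nerves at an adjusted p of at most 0.05 (edgeR), against 15.4% and 16.2% of all 11371 genes tested. When genes also had to change by 0.8 or more on the log2 scale in either direction and to average 20 or more normalized counts, 1 gene (Hist1h1c) was higher and 0 were lower in edgeR as in DESeq2, where H1f0, the 1 gene lower at an unadjusted p under 0.05 in edgeR, missed the fold limit, against 3.73% and 5.05% of all genes. Under total-count scaling 5 were higher by these limits. That scaling called 3766 of all genes higher at the adjusted p limit alone (edgeR), against 1756 with TMM. Without control 2 H1f0 was lower by the fold and base mean limits. The libraries of the genotypes did not overlap for 6 higher and 2 lower genes, against 22% and 21.6% of all genes. The median log2 fold change of the 12 genes was 0.37, beside -0.0026 over all genes tested. DESeq2 called 3 higher and 1 lower, against 1172 and 1287 of all genes. With control library 3 left out, edgeR called 3 higher and 1 lower, against 1280 and 1426 of all genes. Without Rnf40ΔSC 3, 5 were higher and 1 was lower, against 1900 and 1977 of all genes. Total-count scaling moved the median of all genes by 0.27 on the log2 scale and the share of higher genes among all calls from 48.8% to 81.1%, so all changes below are relative to TMM unless said otherwise.

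**Figure D1:**
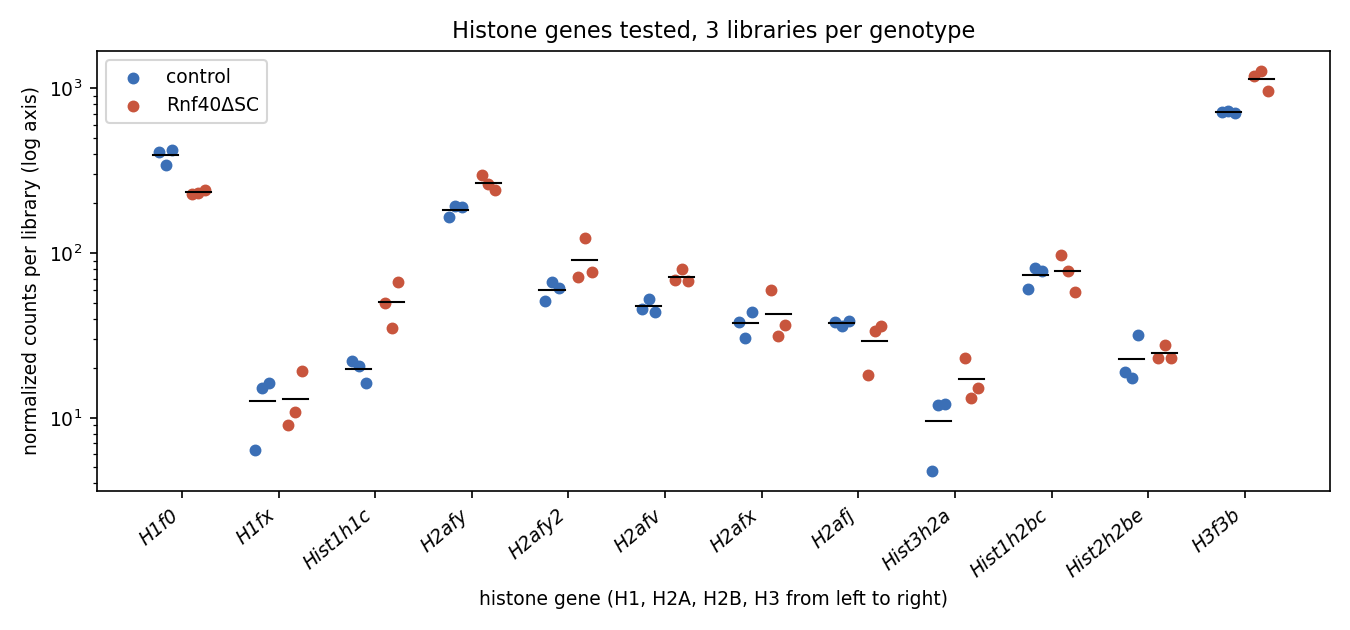
Normalized counts (log axis) of the 12 histone genes tested, with 1 point per library, 3 control and 3 Rnf40ΔSC libraries, and a black line at each mean. H1f0 sat lower and H3f3b higher in all 3 Rnf40ΔSC libraries, while the libraries overlapped for both H2B genes, Hist1h2bc and Hist2h2be.

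Of the linker histone genes, whose products bind the DNA between nucleosomes, 3 of 8 were tested, and 1 was lower, 1 higher and 1 not called (16.2% and 15.4% of all genes were lower and higher). H1f0, which encodes the linker histone H1.0 that builds up in differentiated cells, gave 413, 343 and 422 normalized counts in control and 227, 233 and 242 in Rnf40ΔSC libraries. Every Rnf40ΔSC library lay below every control library, and the values within Rnf40ΔSC were close together. The log2 fold change was -0.75 ± 0.10 (SE; edgeR adjusted p = 3.84e-07), or 0.596-fold, and -0.77 without Rnf40ΔSC 3.

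Hist1h1c, a replication-dependent linker histone gene for H1.2 that is also transcribed outside S phase, gave 22.2, 20.7 and 16.4 normalized counts in control and 49.7, 34.95 and 67.0 in Rnf40ΔSC libraries. The genotypes did not overlap, although the Rnf40ΔSC libraries differed from each other by more than the control libraries did. The log2 fold change was 1.41 ± 0.26 (SE; edgeR adjusted p = 4.86e-05), and it was 1.17 without Rnf40ΔSC 3, the library with the highest value.

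H1fx, the gene for the linker histone H1.10, was low, with 4, 14 and 19 reads in control and 11, 9 and 24 in Rnf40ΔSC libraries. These overlapped, and the edgeR log2 fold change of -0.01 ± 0.39 (SE; adjusted p = 0.982) changed sign in 7 of 11 alternatives, total-count scaling among them, and was -0.44 without Rnf40ΔSC 3. In the annotation of mm9, 20.1% of its exon bases also belong to Gm5577, so its reads are uncertain.

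The make-up of the H1 reads differed too. H1f0 took 92.2%, 90.5% and 92.6% of all H1 counts in control and 78.1%, 82.1% and 72.7% in Rnf40ΔSC libraries, and Hist1h1c took 4.97%, 5.46% and 3.59% against 17.1%, 12.3% and 20.1%. Neither share overlapped between genotypes. Summed over all 8 H1 genes the level was 222 ± 21.8 CPM in control and 157 ± 13.9 CPM in Rnf40ΔSC libraries, a log2 ratio of -0.50 (-0.58 without Rnf40ΔSC 3), which became 0.98 when H1f0 was left out. The replication-dependent H1 genes alone summed to 11.5 ± 3.02 CPM in control and 28.7 ± 8.32 CPM in Rnf40ΔSC libraries, with no overlap, but Hist1h1c supplied 225 of their 246 reads and was the only 1 of the 6 tested. Hist1h1e, for H1.4, did not reach the test and had 3 reads in control and 14 in Rnf40ΔSC libraries, a ratio of 3.84 with a counting interval from 1.07 to 20.9 (95%, exact binomial), and it was not called by edgeR run with no filter (adjusted p = 0.191).

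Variant H2A genes supplied 2685 of the 2779 H2A reads. H2afy, which encodes macroH2A1, a variant with a large extra domain found on repressed chromatin, gave 165, 192 and 189 normalized counts in control and 299, 264 and 240 in Rnf40ΔSC libraries. All Rnf40ΔSC libraries were above all control libraries. This was a log2 fold change of 0.55 ± 0.11 (SE; edgeR adjusted p = 0.000198), and 0.63 without Rnf40ΔSC 3.

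Its paralog H2afy2, for macroH2A2, gave 50.8, 66.5 and 61.1 normalized counts in control and 72.0, 123 and 76.6 in Rnf40ΔSC libraries. Library Rnf40ΔSC 2 was far above the others. The log2 fold change was 0.56 ± 0.19 (SE; edgeR adjusted p = 0.0229), but without Rnf40ΔSC 2 it was 0.31 with an edgeR adjusted p of 0.252. The edgeR call was also lost without control 1 (adjusted p = 0.0971) and without control 3 (adjusted p = 0.0783), and with DESeq2 (adjusted p = 0.0739), with a range of 0.000772 to 0.252 over all alternatives. Without Rnf40ΔSC 3 it was 0.66. Of its exon bases 11.1% are shared with Aifm2.

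H2afv, for an H2A.Z type histone found at promoters, gave 46.0, 52.3 and 43.9 normalized counts in control and 68.7, 79.5 and 67.8 in Rnf40ΔSC libraries. The genotypes were apart with little spread. On the log2 scale the change was 0.59 ± 0.19 (SE; edgeR adjusted p = 0.0122), and the call was lost with DESeq2 (adjusted p = 0.0597) and in edgeR without control 3 (adjusted p = 0.0736), with a range of 0.000281 to 0.0736. Without Rnf40ΔSC 3 it was 0.64.

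The remaining H2A genes that were tested did not pass. H2afx, whose product is phosphorylated at DNA breaks, had 38.1, 30.5 and 43.9 normalized counts in control and 59.6, 31.3 and 36.7 in Rnf40ΔSC libraries, which overlapped, with a log2 difference of 0.20 ± 0.24 (SE; edgeR adjusted p = 0.574) that became -0.13 without Rnf40ΔSC 1, 0.35 without control 3 and 0.33 without Rnf40ΔSC 3. H2afj had 38.1, 35.96 and 38.7 against 18.2, 33.7 and 35.9 normalized counts, with a log2 difference of -0.37 ± 0.25 (SE; edgeR adjusted p = 0.275), and its libraries were just apart, with Rnf40ΔSC 1 far below the others. Without Rnf40ΔSC 1 the difference for H2afj was -0.095, and without Rnf40ΔSC 3 it was -0.59. Hist3h2a was the only replication-dependent H2A gene of 18 that was tested, with 4.76, 12.0 and 12.1 against 23.2, 13.3 and 15.2 normalized counts. Its log2 difference of 0.77 ± 0.38 (SE; edgeR adjusted p = 0.124) passed with total-count scaling (1.04, edgeR adjusted p = 0.0277, range 0.0277 to 0.448) and was 0.50 without Rnf40ΔSC 1 and 0.88 without Rnf40ΔSC 3, and 35.6% of its exon bases are shared with Trim17.

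Over all 28 H2A genes the summed level was 199 ± 11.6 CPM in control and 274 ± 21.2 CPM in Rnf40ΔSC libraries (log2 ratio 0.46, or 0.52 without Rnf40ΔSC 3, no overlap). H2afz, the other H2A.Z gene, had only 9 reads, 4 in control and 5 in Rnf40ΔSC libraries, and H2afy3, annotated as a pseudogene, had 21 and 18.

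H2B is the histone that the Rnf20 and Rnf40 ligase ubiquitinates, and all 18 H2B genes here carry Hist symbols and were therefore counted as replication-dependent. The stem-loop was found in 13 of the 18 and not in Hist2h2be, so for H2B the class is one of symbols. Hist1h2bc, the most abundant, gave 60.3, 80.6 and 78.3 normalized counts in control and 96.9, 78.3 and 58.3 in Rnf40ΔSC libraries. The lowest and the highest values were a Rnf40ΔSC library each, so the control libraries lay within the Rnf40ΔSC range. The log2 difference was 0.07 ± 0.18 (SE; edgeR adjusted p = 0.817), with a 95% interval from -0.29 to 0.42 (normal approximation). It was 0.26 without Rnf40ΔSC 3, -0.13 without Rnf40ΔSC 1 and -0.032 without control 1, and 0.33 with total-count scaling (edgeR adjusted p = 0.138, range 0.138 to 0.926).

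Hist2h2be gave 19.1, 17.4 and 31.8 against 23.2, 27.7 and 23.1 normalized counts, with overlap. Its log2 difference was 0.05 ± 0.29 (SE; edgeR adjusted p = 0.910), with a wider interval from -0.51 to 0.62, and it ran from -0.12 (without control 2) to 0.43 (without control 3) with a library left out, with 0.096 without Rnf40ΔSC 3, and was 0.32 with total-count scaling. Thus 0 of the 2 H2B genes tested were called by edgeR (0 at an unadjusted p under 0.05) or by DESeq2. Of all genes tested 15.4% were higher and 16.2% lower in edgeR, and 1172 and 1287 of 11371 in DESeq2. Against these shares a count of 0 among 2 genes does not set H2B apart. The median log2 difference of the 2 H2B genes was 0.06 beside 0.55 for the 10 other histone genes tested, a difference that was itself not tested. Of the H2B genes below the filter, Hist1h2be had 15 reads in control and 32 in Rnf40ΔSC libraries (ratio 1.76, counting interval 0.924 to 3.49). All 3 Rnf40ΔSC libraries lay above all control libraries for Hist1h2be, at 11.6, 9.64 and 7.98 against 4.76, 5.45 and 6.03 normalized counts, and edgeR run with no filter did not call it (adjusted p = 0.313). Hist3h2ba had 12 and 8 (ratio 0.549, 0.195 to 1.46), and 13 H2B genes had none.

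Summed over the family, H2B was at 45.3, 54.2 and 64.3 CPM in control and 69.1, 60.6 and 48.8 CPM in Rnf40ΔSC libraries, which overlapped (log2 ratio 0.12). This ratio was 0.0065 without control 1, 0.0033 without Rnf40ΔSC 1, 0.26 without control 3 and 0.25 without Rnf40ΔSC 3. The replication-dependent genes other than H2B were at 21.4, 17.5 and 17.9 CPM in control and 48.1, 36.3 and 50.9 CPM in Rnf40ΔSC libraries, which did not overlap (log2 ratio 1.25), with Hist1h1c supplying 225 of their 390 reads. The difference of the log2 ratios was -1.13, -1.34 to -0.91 with each library left out in turn, and -0.92 without the most abundant gene on each side. H2B therefore took 67.9%, 75.6% and 78.3% of replication-dependent counts in control and 59.0%, 62.6% and 49.0% in Rnf40ΔSC libraries, with no overlap. As a share of all histone counts H2B overlapped, at 5.38%, 6.52% and 7.33% against 6.11%, 5.19% and 4.99%. Against all other histones the difference of log2 ratios was -0.25, and it became 0.14 when the most abundant gene on each side was left out.

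**Figure D2:**
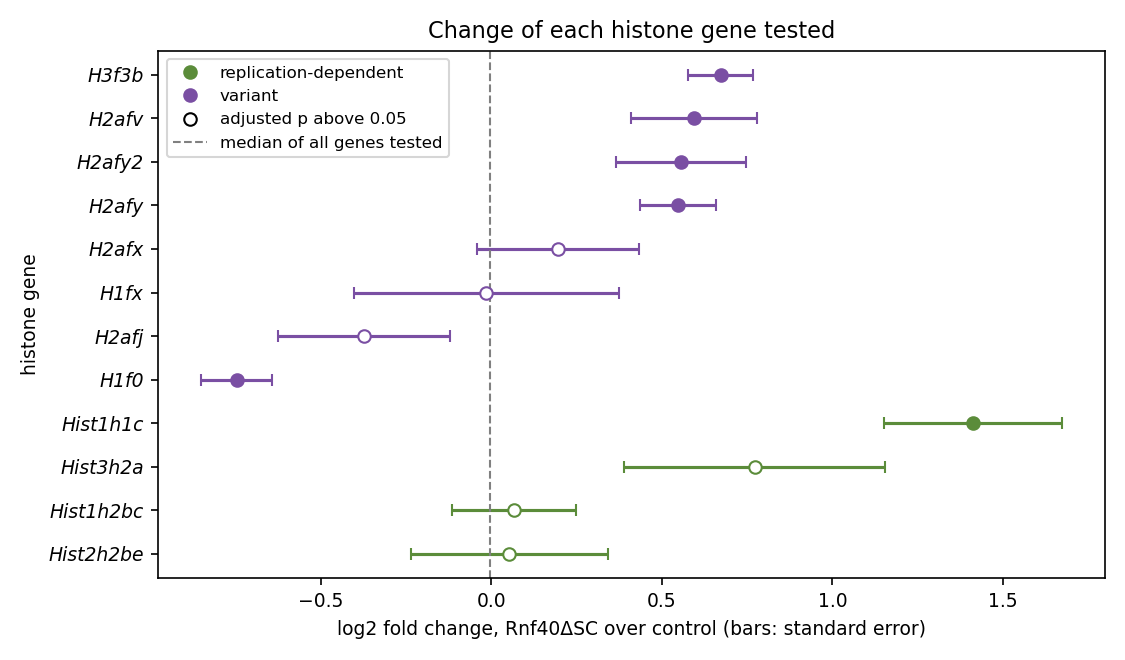
Log2 fold change (Rnf40ΔSC over control) with its standard error for each histone gene tested, by class, with open symbols where the adjusted p was above 0.05 and a dashed line at the median of all genes tested. Hist1h1c, at 1.41, lay farthest to the right and H1f0, at -0.75, farthest to the left, while both H2B genes lay near 0.

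Histone H3 reads came almost wholly from H3f3b, which encodes the replacement histone H3.3 that is deposited outside replication. On the minus strand at chr11:115883226-115889276 of mm9, it gave 719, 722 and 708 normalized counts in control and 1188, 1276 and 964 in Rnf40ΔSC libraries. The control libraries were nearly equal, and Rnf40ΔSC 3 was the lowest of the Rnf40ΔSC libraries but above all controls. The change on the log2 scale was 0.67 ± 0.10 (SE; edgeR adjusted p = 6.81e-07), or 1.59-fold, and 0.79 without Rnf40ΔSC 3.

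H3f3b alone made up 44.3%, 45.0% and 41.9% of all histone counts in control and 54.5%, 56.6% and 51.1% in Rnf40ΔSC libraries, without overlap. H3f3a, which encodes the same protein, had 3, 1 and 2 reads in control and 9, 5 and 9 in Rnf40ΔSC libraries, below the filter, with a ratio of 3.16 (counting interval 1.25 to 9.48), and it was not called by edgeR run with no filter (adjusted p = 0.102). Of the 12 replication-dependent H3 genes, 10 had no read and the others, Hist1h3b and Hist1h3d, had 6 reads together.

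None of the 13 H4 genes, all replication-dependent, was tested, and 8 had no read. Hist1h4h had 1, 0 and 3 reads in control and 10, 14 and 8 in Rnf40ΔSC libraries. Every Rnf40ΔSC library was above every control library. The ratio was 6.59 with a counting interval from 2.34 to 25.6, and when edgeR was run with no filter on low counts, Hist1h4h had an adjusted p of 0.00156 and joined the histone genes called higher, then 6 of 35 tested, against 1923 of all 17139 genes. H4 genes as a whole had 2, 1 and 3 reads in control against 15, 14 and 9, of which Hist1h4h was the larger part.

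Taken by class, the replication-dependent genes summed to 73.5 ± 7.87 CPM in control and 105 ± 11.01 CPM in Rnf40ΔSC libraries (log2 ratio 0.51), and the variant genes to 777 ± 17.02 and 988 ± 98.8 CPM (log2 ratio 0.35), each without overlap between genotypes (0.54 and 0.42 without Rnf40ΔSC 3). Replication-dependent genes held 7.92%, 8.62% and 9.37% of histone counts in control and 10.4%, 8.29% and 10.2% in Rnf40ΔSC libraries, which overlapped. The median log2 fold change was 0.42 for the 4 replication-dependent and 0.37 for the 8 variant genes tested. Of the former 1 was higher and 0 lower in edgeR (DESeq2 1 and 0, and 0 lower at an unadjusted p under 0.05), and of the latter 4 were higher and 1 lower (DESeq2 2 and 1), against 15.4% and 16.2% of all genes in edgeR and 1172 and 1287 of 11371 in DESeq2. The difference of log2 ratios, 0.16, became -0.031 when H2afx and H2afj, whose class is not settled by their symbols, were counted as replication-dependent. With each library left out in turn it ran from 0.090 (without Rnf40ΔSC 1) to 0.28 (without Rnf40ΔSC 2), and it was 0.89 without the most abundant member of each class. Without H3f3b the log2 ratio of the variant sum was -0.034, a sum in which H1f0 was lower while the H2A variant genes together were higher (193.9 against 264 CPM, log2 ratio 0.45, no overlap).

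**Figure D3:**
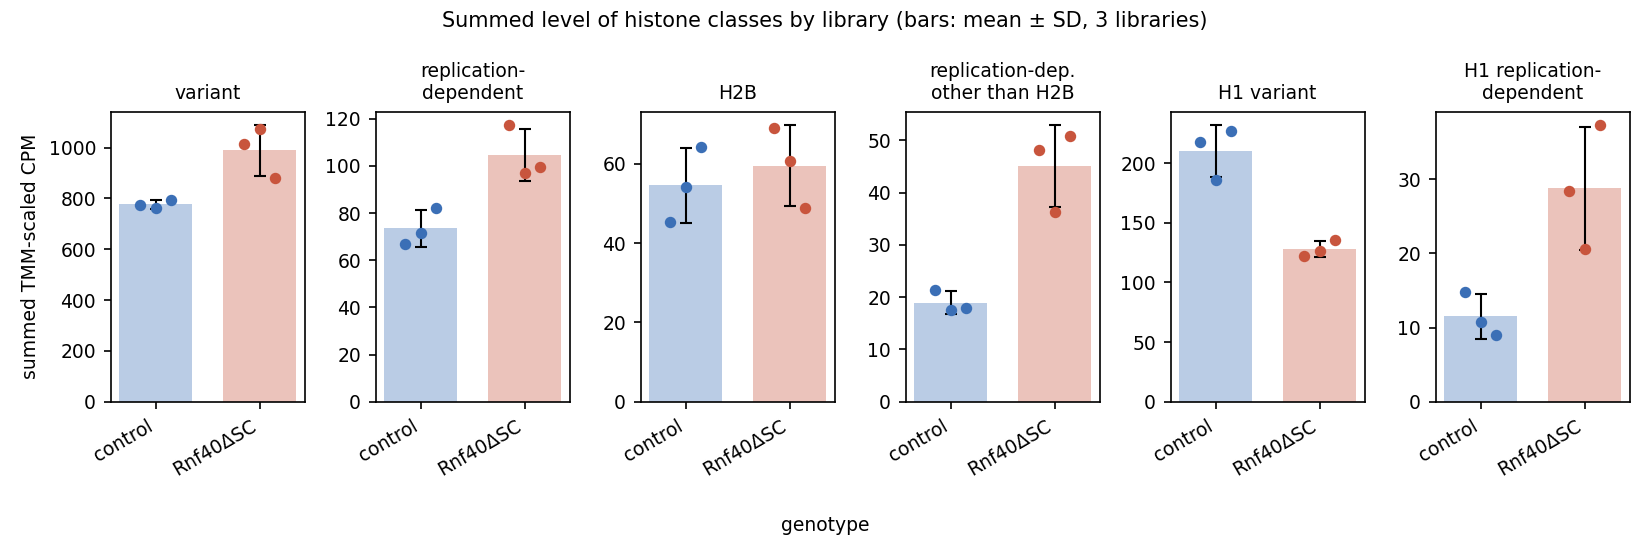
Summed CPM after TMM scaling of 6 sets of histone genes by genotype, with bars at the mean, SD as error (n = 3) and 1 point per library. The H2B sum overlapped between genotypes, and the sum of the other replication-dependent genes, with 225 of its 390 reads from Hist1h1c, was higher in all 3 Rnf40ΔSC libraries. The sum of the variant H1 genes, mostly H1f0, was lower and that of the replication-dependent H1 genes, mostly Hist1h1c, was higher.

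Levels of different genes were compared per length of the coding transcript. H3f3b had the highest level, 285 normalized counts per kb in control and 455 in Rnf40ΔSC libraries. In control Hist1h2bc, at 99.3, came before H2afy, at 89.0, and in Rnf40ΔSC libraries after it, at 106 against 131. Only uniquely mapped reads were counted, and 49.2% of the exon windows of Hist1h2bc were unique, against 100% for H2afy. The coding transcript of H2afy has 2046 bases, while its exons cover 6809. Each of these limits sets Hist1h2bc low against H2afy. The levels were corrected for neither, so the order of Hist1h2bc and H2afy, and its change between genotypes, hold for this measure only. H2afv was at 29.0 and 44.0. Hist1h1c was at 12.7 and 32.4, and Hist2h2be at 8.70 and 9.43. For H1f0 no level per length is given, because the annotation used here models it as a pseudogene with 534 exon bases and no coding transcript.

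The replication-dependent genes lay in 4 places. In mm9 the Hist1 cluster held 54 genes at chr13:21807632-24026720, 18 of them with reads, the Hist2 cluster 10 genes at chr3:96023839-96082924 with 3, the Hist3 cluster 2 genes at chr11:58762413-58770176 with 2, and Hist4h4 stood alone at chr6:136752589-136752900 with none. Within the clusters 13 pairs of genes started in opposite directions within 1000 bases of each other, 12 of them an H2A and an H2B gene. Hist1h2bc and Hist1h2ac are such a pair, 250 bases apart, yet Hist1h2bc had 458 reads and Hist1h2ac 1.

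Of the 4 replication-dependent genes that were tested, 3 held AATAAA, the usual signal for polyadenylation, in the last 40 bases of their annotated transcript (sense strand), as did 3 of the 19 with reads below the filter and 4 of the 43 without reads, beside 52.0% of all protein-coding genes. Hist1h1c and Hist1h2bc held both the stem-loop and AATAAA, and Hist2h2be held AATAAA and no stem-loop. The median exon length was 1775 bases in the tested replication-dependent genes and 519.5 bases in those without reads. Whether poly(A) RNA was selected is not given in the sources used here.

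Only uniquely mapped reads had been counted, so the uniqueness of each gene was measured as the share of its 50-base exon windows that occur once in the mm9 genome on either strand, by exact match. Read length is not given in the sources used here. The median share was 94.7% for the 4 replication-dependent genes tested, 75.2% for the 19 with reads below the filter and 36.4% for the 44 without reads, 6 of which had no unique window. It was 98.7% for the 8 variant genes tested. H2afz had 59.4% and H3f3a 74.6%, against 100% for H2afv and 80.1% for H3f3b. Hist1h2bc, at 49.2%, had 458 reads, and H1f0 was measured on its short model only. Where copies are nearly identical the counts are uncertain to that extent, and the part of uniqueness in the absence of reads was not tested.

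**Figure D4:**
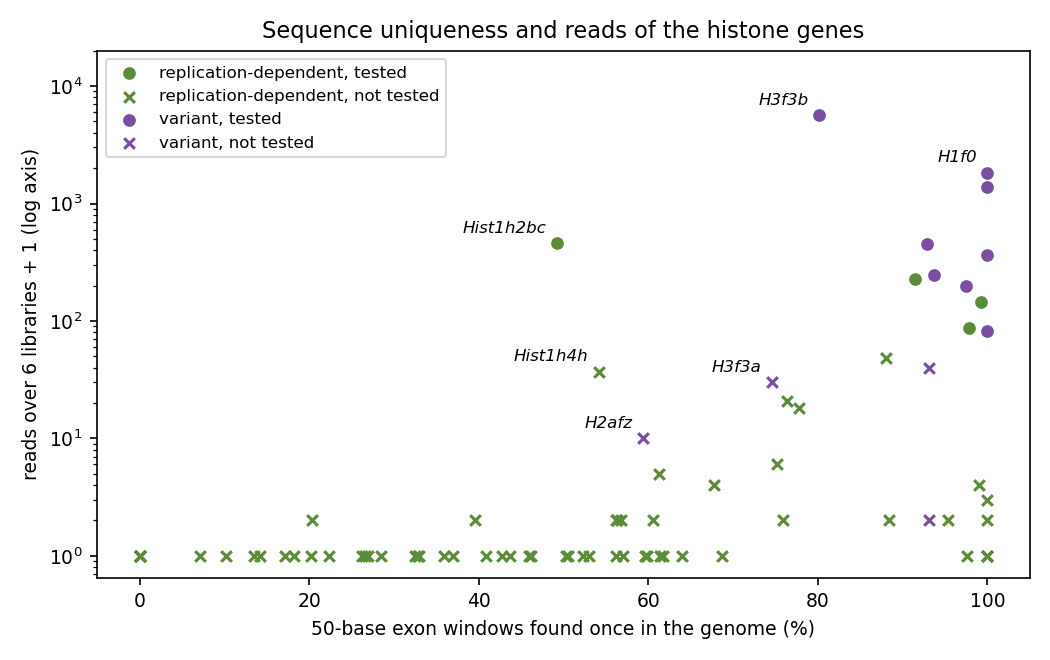
Share of 50-base exon windows found once in the genome against reads over all 6 libraries plus 1 (log axis), for the 79 histone genes in the annotation, by class and by whether the gene was tested. The 44 replication-dependent genes without reads had a median share of 36.4% and the 4 tested ones 94.7%, with Hist1h2bc at 49.2%.

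Genes that act on histones were followed beside them, from lists of their roles. The counts below stand against 15.4% higher and 16.2% lower of all 11371 genes tested in edgeR, and against 1172 higher and 1287 lower genes in DESeq2. Of 10 tested genes that process replication-dependent histone mRNA, 0 were called by edgeR (0 at an unadjusted p under 0.05) or DESeq2, with a median log2 difference of 0.06. Slbp, the stem-loop binding protein, was not called (-0.04), nor was Sympk, the most abundant (0.04). Of 24 histone chaperones, 13 were higher and 0 lower in edgeR (0 lower at an unadjusted p under 0.05; DESeq2 6 and 0), with a median of 0.41 and log2 fold changes of 1.09 for Asf1b, 1.08 for Chaf1b, 0.71 for Supt6, the most abundant, and 0.65 for Asf1a. Asf1b and Chaf1b reached the filter's count limit in Rnf40ΔSC libraries alone, so their calls and the count that holds them are a description.

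Of 13 genes of complexes that exchange histone variants, 4 were higher and 1 lower in edgeR (DESeq2 2 and 0; 1 lower at an unadjusted p under 0.05 in edgeR), with a median of 0.36, Ruvbl2 at 0.72, Ep400 at 0.50, Mbtd1, the most abundant, at 0.46, Epc2 at 0.37 and Kat5 at -0.52. Of 24 genes of S phase and proliferation tested, 6 were higher and 0 lower in edgeR, against 15.4% and 16.2% of all genes (1, Ccne2, lower at an unadjusted p under 0.05; DESeq2 3 and 0), with a median of 0.39 and log2 fold changes of 1.19 for Aurkb, 1.05 for Fen1, 0.96 for Mcm2, 0.73 for Mcm7 and 0.64 for Mki67, the most abundant. Aurkb and Fen1 reached the filter's count limit in all 3 Rnf40ΔSC libraries and in 1 control library, and so passed it through the genotype in which they were high. Their calls and the count that holds them are therefore a description. Tested genes of this list with a log2 difference below 0, not called by edgeR, were Ccne2 (-0.85), Pcna (-0.41), Mcm3 (-0.17), E2f1 (-0.16), Cdk2 (-0.15), Rrm1 (-0.11) and Prim1 (-0.02). The summed level of all 30 genes of this list, untested ones included, was 427, 367 and 407 CPM in control libraries. In Rnf40ΔSC libraries it was 467, 513 and 537 CPM, with no overlap. The replication-dependent genes other than H2B were also higher without overlap, as were the summed chaperone, exchange complex and H2B ubiquitin lists. Within Rnf40ΔSC, library 1 was lowest in the proliferation sum and library 2 in those histone genes. The part of proliferation in the histone values was not tested. Of 15 genes that add or remove ubiquitin on H2B, 5 were higher and 2 lower in edgeR (DESeq2 3 and 1), with a median of 0.26, Usp7 at 0.63, Rtf1 at 0.47, Rnf20 at 0.44, Ube2b at 0.37, Paf1 at 0.34, Ube2a at -0.52 and Usp22, the most abundant, at 0.06. The other lower gene was Rnf40 itself, the gene deleted by design.

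Markers of the cell types in the nerve also moved with genotype, and their part in the histone values was not tested. Of the Schwann cell markers, Sox10 (log2 fold change -0.79), S100b (-0.89) and Prx (-1.59) were called lower by edgeR and Egr2 (0.36) higher. Called higher and lower by edgeR were 0 and 3 of 4 fibroblast, 0 and 2 of 2 perineurial, 0 and 3 of 4 endothelial, 0 and 4 of 5 macrophage and 0 and 3 of 4 adipocyte markers tested (none of these lists had a higher gene at an unadjusted p under 0.05 or in DESeq2). These stand against 15.4% and 16.2% of all genes, and DESeq2 called 2 fibroblast, 1 perineurial, 3 endothelial, 4 macrophage and 3 adipocyte markers lower. Summed levels in control libraries 1 to 3 and then Rnf40ΔSC libraries 1 to 3 were 14479, 14214, 15506, 12049, 11294 and 11950 CPM for fibroblast markers (Col1a1 the most abundant) and 414, 491, 463, 383, 323 and 335 CPM for perineurial markers (Cldn1). They were 618, 548, 616, 395, 410.0 and 473 CPM for endothelial (Cdh5), 305, 257, 304, 197, 186 and 197 CPM for macrophage (Csf1r) and 1144, 826, 1451, 898, 820.0 and 653 CPM for adipocyte markers (Fabp4). The libraries of the genotypes overlapped for the adipocyte sum and not for the others. Of the erythroid markers Alas2 alone was tested and not called (0 at an unadjusted p under 0.05 and 0 in DESeq2), with sums of 22.2, 15.3 and 14.3 against 5.15, 8.75 and 17.4 CPM, and Hba-a1, Hbb-b1 and Hbb-b2 were at 0 in all libraries. Only uniquely mapped reads were counted and the unique sequence of these globin genes was not measured, so no limit is given for them. Among histone genes outside the symbol rule, 0 of 6 found were tested, 5 had no read, and Cenpa, the centromeric H3, was the most abundant.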

How the data were processed

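The authors aligned RNA-Seq reads to mm9 with TopHat and deposited raw counts per gene of uniquely mapped reads from HTSeq. The submitters' notes also name mm10. Annotation and strand setting of the counting are not given in the sources used here, so genes overlapping on either strand are uncertain. The methods name a NEXTFLEX directional kit and the labels NEB Next Ultra.

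The test on 6 libraries (3 per genotype) used edgeR 4.0.16 under R 4.3.3: filterByExpr (11371 genes), TMM, a robust quasi-likelihood model holding genotype alone, Benjamini-Hochberg adjustment over all genes. Normalized counts are scaled to the mean effective library, and standard errors are the log2 fold change over the root of the F statistic. Ratios of low counts carry exact binomial intervals, which cover counting error only. DESeq2 1.42.0, other scalings and filters, a replicate block and each library left out were alternatives. Scripts were tested on simulated data, where the share of false calls in edgeR was above the nominal rate, so calls near the threshold (H2afv, H2afy2) may be weaker than their adjusted p.

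Every histone gene that passed the filter was named, and of those that did not the 5 with the most reads, and of each list of related genes up to 4 called genes per direction and the most abundant. Hist1h1e, H2afz, Slbp, Paf1, Ccne2, Pcna, Mcm3, E2f1, Cdk2, Rrm1, Prim1, Hist1h2ac, Hist1h3b, Hist1h3d, Hist4h4, H2afb2 and H2afb3 were named after their values were seen. Members and lists were chosen with earlier results of these data known. Positions and sequences were read with Python 3.11.15 (numba 0.67.0) from GENCODE vM1 on mm9, in which 79 of 81 symbols were found.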

Additional observations from a re-analysis of the deposited data

How the results depend on the processing

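H1f0, H2afy, H3f3b and Hist1h1c kept their direction and their call in all 12 alternatives, with log2 fold changes from -0.84 to -0.48, 0.46 to 0.82, 0.59 to 0.94 and 1.17 to 1.68. Of 154 gene values under alternatives, 133 kept direction and call, 7 lost the call, 1 gained it and 13 changed sign. The cause was not tested except where genes or libraries were left out.

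Called higher were 3 genes with DESeq2 and 3 to 5 with a library left out (3 without control 3); called lower was 1 in each. With the fold and base mean limits 5 were higher under total-count scaling, which called 3766 of all genes higher at the adjusted p limit alone, against 1756 in the main fit. By the fold and base mean limits 0 to 1 were lower with a library left out (H1f0 without control 2).

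Signs changed only in genes that were not called. H1fx was at 0.26 with total-count scaling, 0.012 with DESeq2, 0.057 with the replicate block, and 0.09, 0.21, 0.22 and 0.09 without control 2, control 3, Rnf40ΔSC 1 and Rnf40ΔSC 2 (-0.44 to 0.22 with a library left out). H2afx was at -0.13 without Rnf40ΔSC 1 (-0.13 to 0.35). Hist1h2bc was at -0.03 and -0.13 without control 1 and Rnf40ΔSC 1 (-0.13 to 0.26). Hist2h2be was at -0.04, -0.12 and -0.02 without control 1, control 2 and Rnf40ΔSC 2 (-0.12 to 0.43).

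Total-count scaling gave log2 ratios of 0.77 for replication-dependent genes, 0.61 for variant genes, 0.39 for H2B, 0.64 for other histones, -0.23 for H1, 0.72 for H2A and 0.94 for H3. Without the most abundant member they were 0.85, -0.034 (variant), 0.055 (other than H2B), 0.98 (H1) and 0.99 (H3). Replication-dependent against variant genes was 0.89 without the most abundant members and -0.031 with H2afx and H2afj moved. H2B against other histones was 0.14 without the most abundant members, and -0.37 to -0.13 with a library left out.

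Same-numbered libraries did not deviate together (correlations -0.09, -0.02 and -0.06), so there was no sign that the numbers pair the samples. Correlations this low cannot exclude a pairing. With a replicate block 5 histone genes were higher and 1 lower, and 1727 and 1837 of all genes. The filter on low counts left 12 of 81 genes for the test.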
